A study of Homo sapiens with 6 samples.

Results

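Cells build fatty acids from acetyl-CoA in the cytosol. ATP citrate lyase and acetyl-CoA carboxylase feed fatty acid synthase, and desaturases and elongases then shape the chains. Spare fatty acids are activated to acyl-CoA and esterified into triglyceride. The triglyceride is kept in droplets coated by perilipins and is released again by lipases. For energy, acyl-CoA enters mitochondria through the carnitine shuttle and is shortened by beta-oxidation. Proliferating stem cells use newly made fatty acids for membranes, and transcription factors of the SREBP family drive most genes of synthesis and desaturation.

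The genes described here were 47 genes of fatty acid synthesis, lipid droplets and oxidation, picked by symbol from the 60664 genes of the deposited table. All 47 were found, each in 1 row. They were divided by role into 10 genes of synthesis and activation, 11 of desaturation and elongation, 16 of triglyceride storage and lipolysis, and 10 of oxidation. In all, 46 passed the filter on low counts. The exception was ACSL5, an acyl-CoA synthetase, which had 3, 0 and 0 counts in knockdown libraries and 1, 0 and 1 in control libraries.

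The 2 groups were a SAMD4A knockdown and its control, both in the established cell line H7, human embryonic stem cells grown on Matrigel in mTeSR Plus medium. Each group had 3 libraries, made with a stranded mRNA kit. SAMD4A belongs to the Smaug proteins, which bind messages and repress them, and the series asked about its part in self-renewal and lineage choice. The knockdown was described as 1 constructed line. The sources used here give neither its construct nor what the control cells carried, which the study also calls WT. They do not say whether replicates were separate cultures, so p-values measure only the spread between these libraries, which may be technical.

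SAMD4A stood at 27.4, 28.5 and 28.5 CPM in knockdown libraries against 52.2, 56.0 and 49.8 CPM in control libraries. CPM is the count per 1e+06 library counts, with library sizes scaled by TMM factors. The mitochondrial share of counts was 4.87% to 5.12% in knockdown and 3.31% to 3.46% in control libraries. Library totals were 19588021 to 21355171 counts in knockdown and 19270688 to 20070027 in control. For the stem cell label, 8 marker genes of pluripotent cells were all measured and summed to 8259 to 8722 CPM in knockdown and 8230 to 8452 CPM in control. By edgeR (adjusted p under 0.05), 3 of them, POU5F1, TDGF1 and L1TD1, were higher in knockdown and 2, NANOG and PODXL, were lower. Among 8 adipocyte markers, LEP, FABP4 and CIDEC had 0 counts in every library. The adipocyte list summed to 24.5 to 27.9 CPM in knockdown and 33.2 to 36.2 CPM in control, nearly all of it LPL, and 8 hepatocyte markers summed to under 4 CPM in each library. Summed neuroectoderm markers were 16.1 to 106 CPM in knockdown and 68.0 to 77.3 CPM in control, and trophoblast markers 9.96 to 13.8 CPM against 17.1 to 22.2 CPM. KRT7 and GABRP, both called lower, made up most of the trophoblast sum, and the groups overlapped for KRT7. CGA, CGB5, TFAP2A, HAND1 and VTCN1 had too few counts to be tested. Knockdown replicate 1 stood apart in the neuroectoderm sum. Most of that sum was DLK1 in control libraries and knockdown replicate 1, and HESX1 in knockdown replicates 2 and 3. DLK1 had 75.7, 2.44 and 1.30 CPM in knockdown libraries, averaged 50.02 CPM in control and was not called (edgeR adjusted p = 0.326). HESX1 was called higher, at 8.32, 12.87 and 12.85 CPM in knockdown libraries against a control mean of 5.91 CPM. RAX was called lower by a narrow margin (edgeR adjusted p = 0.047), and its groups overlapped. PAX6, SIX3, LHX2 and OTX1 lay below every control library in knockdown replicates 2 and 3 only, and were not called. Knockdown CPM was 2.89, 0 and 0.162 for PAX6, 6.97, 0 and 0.054 for SIX3, and 5.88, 0.509 and 0.270 for LHX2. Their control means were 2.21, 5.03 and 4.48 CPM. The part of these other cell types and of the mitochondrial share in the results below was not tested. In bulk RNA, fewer cells of a type and less RNA per cell cannot be told apart.

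Sequences upstream of start sites are shown for 6 members that moved in different directions or carry a motif of lipid control, from RefSeq (GRCh38.p14). Each is the 250 bases before the start site, 5′ to 3′ on the gene's strand. Capitals mark a CCAAT box (CCAAT), the sterol element of SREBP factors (TCACNCCAC) or an E-box (CACGTG), each searched on both strands. The RefSeq start of ACLY, PLIN3 and PLIN2 lies inside the gene span of the deposited table, so those sequences lie wholly or partly within that span. ACLY and SCD, PLIN3 and PNPLA2 were higher in knockdown, and G0S2 and PLIN2 were lower.
ACLY, chr17:41919023-41919272, minus strand: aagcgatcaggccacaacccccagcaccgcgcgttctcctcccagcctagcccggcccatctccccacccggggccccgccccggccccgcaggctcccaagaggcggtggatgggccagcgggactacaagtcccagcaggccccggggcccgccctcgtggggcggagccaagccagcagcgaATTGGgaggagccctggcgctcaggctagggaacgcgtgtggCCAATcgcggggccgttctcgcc
SCD, chr10:100346983-100347232, plus strand: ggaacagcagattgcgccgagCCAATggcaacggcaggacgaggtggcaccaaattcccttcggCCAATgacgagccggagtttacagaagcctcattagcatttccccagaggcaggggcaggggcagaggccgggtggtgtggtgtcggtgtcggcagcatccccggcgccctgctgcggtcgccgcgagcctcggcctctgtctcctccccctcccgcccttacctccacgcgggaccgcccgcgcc
PLIN3, chr19:4867668-4867917, minus strand: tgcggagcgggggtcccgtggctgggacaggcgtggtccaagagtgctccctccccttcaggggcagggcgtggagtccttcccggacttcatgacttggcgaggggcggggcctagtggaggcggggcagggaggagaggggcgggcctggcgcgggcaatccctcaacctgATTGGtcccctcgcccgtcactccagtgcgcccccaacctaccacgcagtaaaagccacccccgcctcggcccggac
PNPLA2, chr11:818664-818913, plus strand: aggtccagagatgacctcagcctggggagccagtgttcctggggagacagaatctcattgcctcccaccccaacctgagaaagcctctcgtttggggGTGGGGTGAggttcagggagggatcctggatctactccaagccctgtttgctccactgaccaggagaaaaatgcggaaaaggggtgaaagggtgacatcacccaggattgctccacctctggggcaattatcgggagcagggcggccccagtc
G0S2, chr1:209675162-209675411, plus strand: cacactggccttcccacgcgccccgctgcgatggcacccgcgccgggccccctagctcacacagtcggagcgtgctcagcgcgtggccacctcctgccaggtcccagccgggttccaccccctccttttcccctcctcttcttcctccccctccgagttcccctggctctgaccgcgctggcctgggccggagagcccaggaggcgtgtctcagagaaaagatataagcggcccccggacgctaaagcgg
PLIN2, chr9:19127493-19127742, minus strand: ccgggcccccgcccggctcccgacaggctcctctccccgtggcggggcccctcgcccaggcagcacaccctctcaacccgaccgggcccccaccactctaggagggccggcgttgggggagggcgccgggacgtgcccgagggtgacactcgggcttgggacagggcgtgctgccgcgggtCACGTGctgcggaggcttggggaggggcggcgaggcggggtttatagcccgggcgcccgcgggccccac

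CCAAT boxes, which NF-Y binds beside SREBP factors, were found at 2 places upstream of both ACLY and SCD and at 1 upstream of PLIN3. Windows of 300 bases, 250 before and 50 after the start site, were found for 41 of the 47 members. FASN, FABP5, PNPLA3, DGAT1, DGAT2 and MGLL had none. A gene held a motif where any of its windows did, with 64 windows for the members and 35116 for all genes. A CCAAT box lay in a window of 10 of 18 higher members (55.6%) and 3 of 7 lower members (42.9%). It lay in 7 of 16 members without a call (43.8%) and 39.7% of all 27305 genes with windows. The sterol element lay in 2 of the 18 higher members, ACSL1 and PNPLA2, and 0 of the 7 lower ones. It lay in 0 of the 16 members without a call and 1.4% of all genes. An E-box lay in 1 of the 7 lower members, PLIN2, and in 1 of the 18 higher ones. It lay in 3 of the 16 members without a call and in 8.8% of all genes. Such matches describe letters in a window and do not show that a factor binds there.

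Of the 46 tested members 31 were called by the edgeR quasi-likelihood test at an adjusted p under 0.05, with 22 higher and 9 lower in knockdown. In 22 members every knockdown library lay above every control library and in 9 below, against 28.9% and 29.4% of all genes tested. The background was high: 51.7% of all 17258 genes tested were called, 26.1% higher and 25.6% lower. Among the members 67.4% were called. Their median log2 fold change, knockdown over control throughout, was 0.16, against -0.01 over all genes tested. Synthesis and activation genes were called higher for 6 of 9 and lower for 0, and of 11 desaturation and elongation genes 5 were higher and 1 lower. Storage and lipolysis genes divided, with 6 of 16 higher and 7 lower, and of 10 oxidation genes 5 were higher and 1 lower. With scaling by total counts only, the median of all genes moved to -0.17, all-gene calls were 2704 higher and 6410 lower, and member calls were 14 higher and 14 lower. By role, in the order above, that scaling gave 5 higher and 2 lower, 4 and 2, 3 and 8, and 2 and 2. Without knockdown replicate 1, 21 members were higher and 10 lower. Changes given below are relative to the TMM scale, and a call lost under a scaling is named beside its gene.

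**Figure D1:**
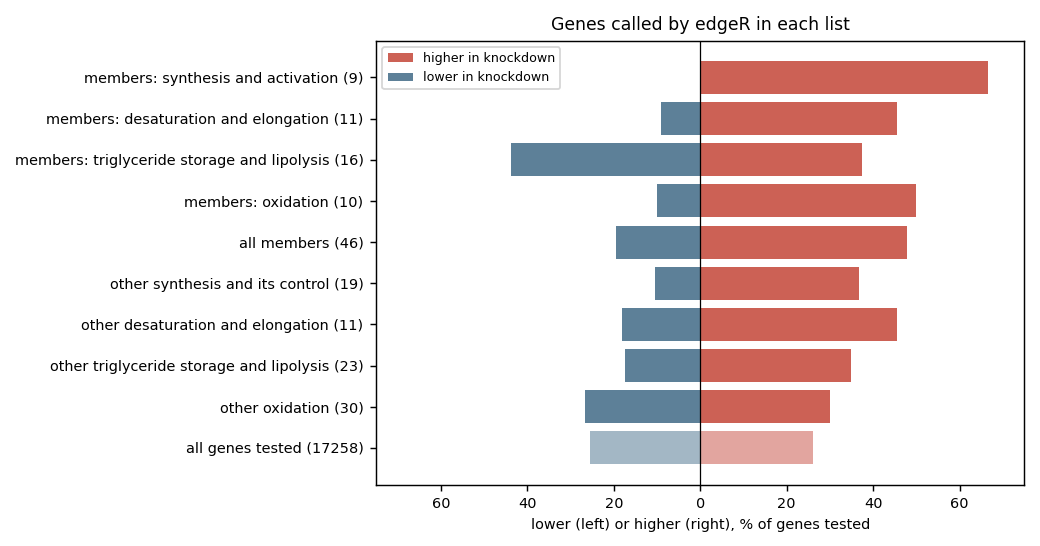
Share of tested genes called lower (bars to the left) or higher (bars to the right) in knockdown, for the 4 groups of members, all members, 4 lists of other pathway genes and all genes tested; the number tested stands in brackets. Storage and lipolysis members divided, with 7 lower and 6 higher, and with 6 and 6 under DESeq2 or limma-voom. Synthesis and activation had 6 higher and 0 lower.

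**Figure D2:**
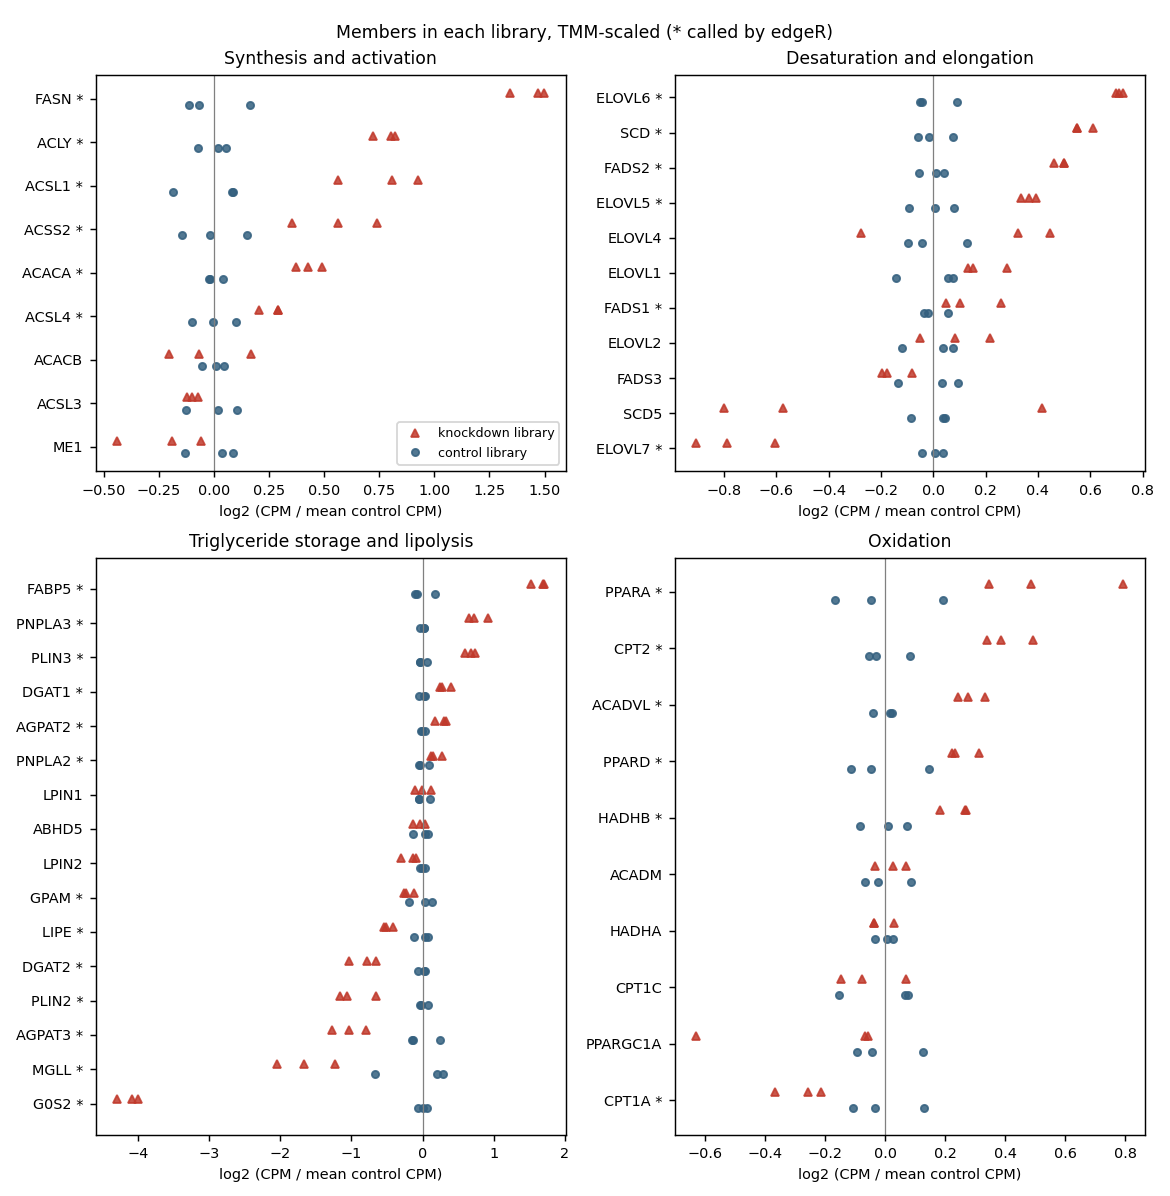
Log2 ratio of CPM in each library to the control mean (x axis) for each of the 46 tested members (rows), with knockdown libraries as triangles above control libraries as circles in each row; a star marks a gene called by edgeR. The axes differ between panels. The 3 knockdown libraries of G0S2 lie near -4, while most oxidation genes lie within 0.5 of the control mean.

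Most genes of synthesis were higher in knockdown, fatty acid synthase most of all. FASN, the enzyme that builds palmitate (ENSG00000169710, chr17:82078338-82098294, minus strand, GRCh38), had 1838, 2048 and 2005 CPM in knockdown libraries against 692, 669 and 812 CPM in control libraries. The groups were far apart, at 2.71-fold, a log2 ratio of 1.44 ± 0.06 (SE, adjusted p = 1.29e-10 by edgeR). A rise of at least 2-fold with a call was found in 2.68% of all genes tested.

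ACLY, which splits citrate into the acetyl-CoA used for synthesis (ENSG00000131473, chr17:41866917-41930542, minus strand), stood at 597, 638 and 632 CPM in knockdown libraries against 366, 343 and 375 CPM in control libraries. It was higher in each knockdown library than in any control library, with a log2 ratio of 0.78 ± 0.05 (SE, adjusted p = 3.09e-09 by edgeR). ACACA, the cytosolic acetyl-CoA carboxylase that commits carbon to fatty acids, averaged 328 ± 13.3 CPM in knockdown and 243 ± 5.997 CPM in control (SD, n = 3 each), with a log2 ratio of 0.43 ± 0.05 (SE, adjusted p = 1.6e-06 by edgeR). ACACB, the mitochondrial-surface form whose product restrains the carnitine shuttle, averaged 18.2 ± 2.42 CPM in knockdown and 18.5 ± 0.630 CPM in control and was not called (log2 fold change -0.03, edgeR adjusted p = 0.836).

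Both carboxylase messages were also set side by side per kilobase of exon, since counts grow with length. On that scale ACACA made up 94.8%, 94.8% and 93.6% of their summed level in knockdown libraries and 92.6%, 92.3% and 92.4% in control libraries. ACACA was the main form in every library, and its share was higher in each knockdown library.

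Supply enzymes outside the citrate route moved less evenly. ACSS2, which makes acetyl-CoA from acetate, was higher, at 24.0, 20.8 and 27.1 CPM in knockdown libraries against 16.02, 14.7 and 18.0 CPM in control libraries (log2 fold change 0.56 ± 0.11, SE, edgeR adjusted p = 0.000615). GGT7, on the opposite strand of the ACSS2 region, averaged 33.6 CPM in knockdown and 35.2 CPM in control; the strand setting of the counting is not given, so reads of overlapping genes cannot be told apart. ME1, the malic enzyme that supplies NADPH for synthesis, averaged 9.41 ± 1.23 CPM in knockdown and 10.98 ± 0.844 CPM in control and was not called (log2 fold change -0.22, edgeR adjusted p = 0.172). With total counts only ME1 was called lower, at -0.38 (edgeR adjusted p = 0.0238).

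Acyl-CoA synthetases, which activate free fatty acids, also differed among themselves. ACSL1 had 13.9, 17.9 and 16.5 CPM in knockdown libraries against 9.98, 8.27 and 9.94 CPM in control libraries, a log2 ratio of 0.77 ± 0.13 (SE, adjusted p = 0.000105 by edgeR). ACSL4, which prefers arachidonate, rose by 0.26 ± 0.06 on the log2 scale (edgeR adjusted p = 0.00119), not called under total counts only (0.10, edgeR adjusted p = 0.133). ACSL3, the form found on new lipid droplets, was not called at -0.10 (edgeR adjusted p = 0.161). It passed as lower with upper-quartile factors (-0.14, edgeR adjusted p = 0.0454), with total counts only (-0.26, 0.00134) and without control replicate 1 (-0.16, 0.0236). Per kilobase, ACSL4 was 55.3%, 55.7% and 54.7% of the sum of ACSL3 and ACSL4 in knockdown libraries and 49.4%, 48.6% and 49.0% in control libraries.

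**Figure D3:**
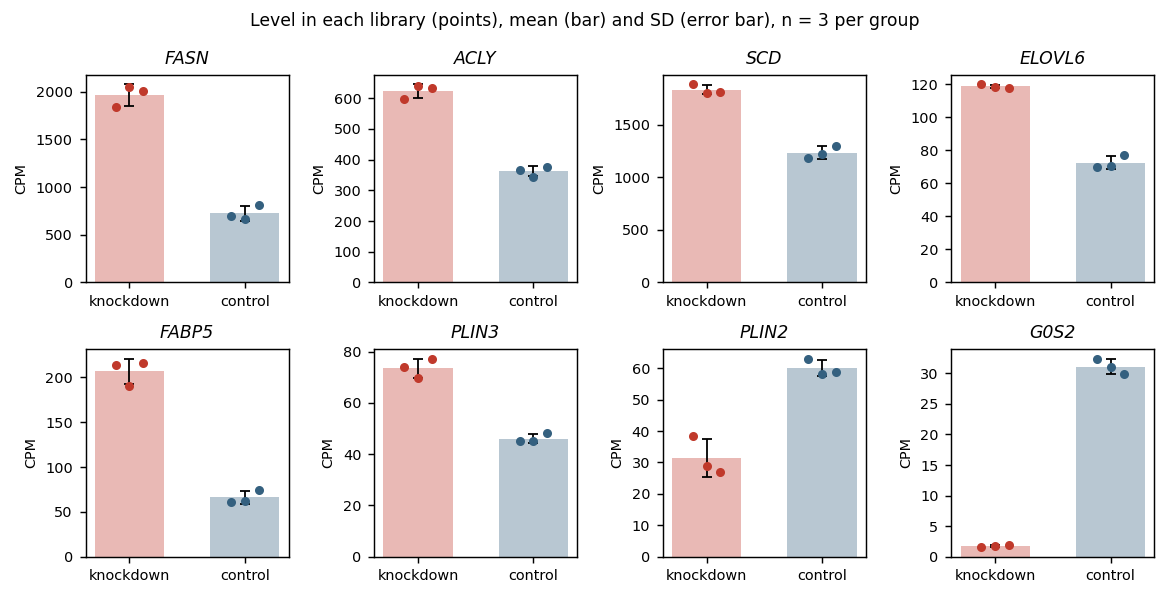
CPM of 8 members in knockdown (left) and control (right) libraries, with points for single libraries, bars for the mean of 3 and error bars for the SD; each y axis starts at 0. FASN, ACLY, SCD, ELOVL6, FABP5 and PLIN3 are higher in each knockdown library than in any control library, and PLIN2 and G0S2 are lower.

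Of 5 desaturases, SCD, FADS2 and, by a narrow margin, FADS1 were called higher. SCD, which places the first double bond in saturated chains (ENSG00000099194, chr10:100347233-100364826, plus strand), was the most abundant member per kilobase of exon in both groups. It had 1884, 1805 and 1808 CPM in knockdown libraries against 1185, 1221 and 1300.4 CPM in control libraries. The groups did not overlap, at 1.48-fold, a log2 ratio of 0.57 ± 0.04 (SE, adjusted p = 4.39e-08 by edgeR). SCD5, its close relative, had 3.14, 1.58 and 1.35 CPM in knockdown libraries against 2.42, 2.21 and 2.41 CPM in control libraries. Knockdown replicate 1 lay above all control libraries and the other knockdown libraries below, and SCD5 was not called (log2 fold change -0.21, edgeR adjusted p = 0.587). SCD held 99.65% or more of the per-kilobase level of the pair in every library.

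FADS2, which starts the desaturation of polyunsaturated chains (delta-6), had 567, 551 and 567 CPM in knockdown libraries against 404, 386 and 412 CPM in control libraries. It was higher in every knockdown library, with a log2 ratio of 0.49 ± 0.04 (SE, adjusted p = 1.97e-07 by edgeR). The annotated FADS2 gene spans FEN1, a replication gene on the same strand that averaged 119 CPM in knockdown and 57.7 CPM in control. FADS1, the delta-5 desaturase of the next step, had 254, 219 and 227 CPM in knockdown libraries against 207, 209 and 220.2 CPM in control libraries, and the groups overlapped. Its call as higher was marginal (log2 fold change 0.14 ± 0.06, SE, edgeR adjusted p = 0.0466), it was lost without knockdown replicate 1 (0.08, 0.189) and in all under 8 of the 14 alternatives, and the sign turned with total counts only (-0.02, 0.788). FADS3, a sphingoid-base desaturase, averaged 42.6 ± 1.80 CPM in knockdown and 47.3 ± 3.85 CPM in control and was not called (log2 fold change -0.15, edgeR adjusted p = 0.108). FADS3 passed as lower with upper-quartile factors (-0.19, edgeR adjusted p = 0.044), with total counts only (-0.31, 0.00308) and without control replicate 3 (-0.21, 0.0376).

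The 3 FADS genes lie together on chromosome 11, with the annotated FADS1 gene inside that of FADS2 on the opposite strand. As the strand setting of the counting is not given, reads from their shared region cannot be told apart. Per kilobase, FADS2 formed 69.3%, 70.8% and 70.4% of their sum in knockdown libraries and 63.4%, 62.5% and 64.1% in control libraries. FADS1 formed 20.6% ± 1.16 of it in knockdown and 23.7% ± 0.70 in control, and FADS3 9.19% ± 0.44 and 12.9% ± 1.17 (SD, n = 3 each). The share counted as FADS2 was thus higher in every knockdown library, within the limit set by the overlap.

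Elongases add carbon pairs to the chain, each with its own range of lengths. ELOVL6, which takes palmitate to stearate, had 119.9, 119 and 118 CPM in knockdown libraries against 69.9, 70.4 and 77.1 CPM in control libraries. That is a log2 ratio of 0.71 ± 0.05 (SE, adjusted p = 5.17e-08 by edgeR). ELOVL5, which extends polyunsaturated chains, had 215, 211 and 206 CPM in knockdown libraries against 153, 164 and 173 CPM in control libraries (log2 fold change 0.36 ± 0.05, SE, edgeR adjusted p = 2.48e-05). ELOVL5 was the elongase with the highest level per kilobase in both groups, at 76.2 ± 1.57 CPM per kilobase in knockdown and 59.1 ± 3.50 in control (SD, n = 3 each).

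ELOVL7, an elongase of long saturated chains, went the other way. Its levels were 7.22, 6.67 and 8.21 CPM in knockdown libraries against 12.6, 12.8 and 12.1 CPM in control libraries, a log2 ratio of -0.76 ± 0.12 (SE, adjusted p = 0.000104 by edgeR). Every knockdown library was below every control library. ELOVL1, which makes very long saturated chains, was not called although its groups did not overlap (log2 fold change 0.19, edgeR adjusted p = 0.0843). ELOVL2, of very long polyunsaturated chains, averaged 4.69 ± 0.432 CPM in knockdown and 4.42 ± 0.309 CPM in control and was not called (0.09, edgeR adjusted p = 0.695). ELOVL4, of the longest chains, had 14.6, 22.1 and 24.1 CPM in knockdown libraries against 16.5, 17.2 and 19.3 CPM in control libraries. Knockdown replicate 1 was the lowest of all libraries for this gene and replicates 2 and 3 the highest. ELOVL4 was not called over all libraries (0.20, edgeR adjusted p = 0.281) and passed without knockdown replicate 1 (0.39, 0.000914).

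**Figure D4:**
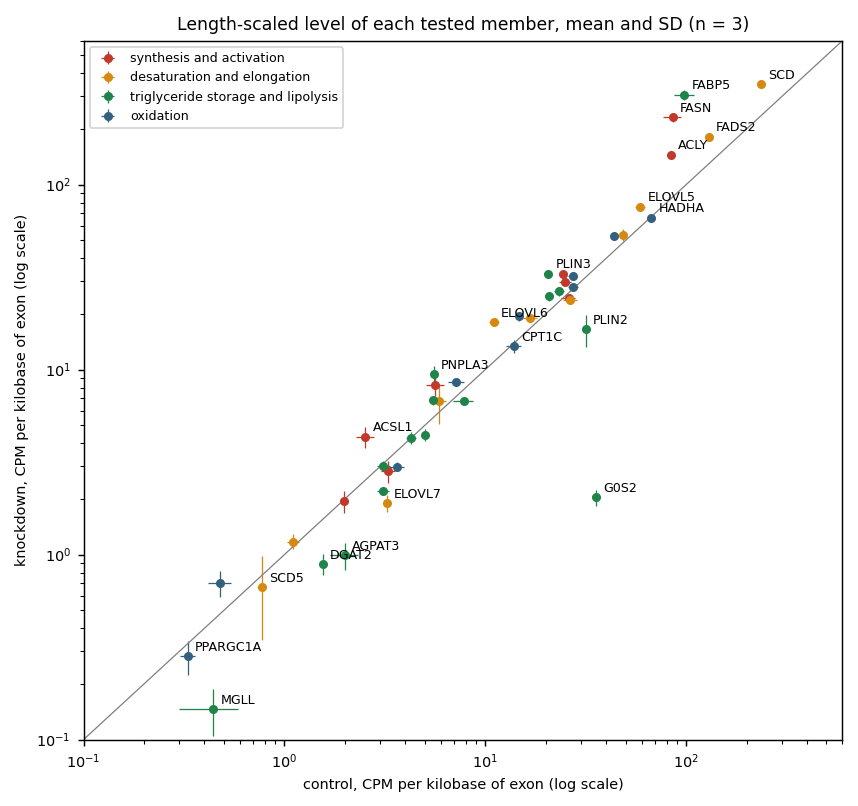
Level per kilobase of exon of each tested member in control (x axis) and knockdown (y axis), both on log scales, as the mean of 3 libraries with the SD as error bars and colours for the 4 groups of genes. Genes above the grey line were higher in knockdown. SCD, FABP5, FASN, FADS2 and ACLY are the 5 highest in knockdown, and G0S2 lies farthest below the line.

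Of 7 genes that assemble triglyceride, 2 were higher and 3 lower. GPAM, the mitochondrial enzyme of the first acylation, had 45.5, 41.4 and 42.4 CPM in knockdown libraries against 43.6, 50.7 and 54.6 CPM in control libraries, and the groups overlapped. It was called lower by a narrow margin (log2 fold change -0.21 ± 0.08, SE, edgeR adjusted p = 0.0493) and lost the call under 8 of the 14 alternatives, DESeq2 and limma-voom among them. AGPAT2, an enzyme of the second acylation, rose by 0.27 ± 0.07 (edgeR adjusted p = 0.00751), not called under total counts only (0.11, edgeR adjusted p = 0.239). AGPAT3, of the same family, had 5.43, 6.46 and 7.61 CPM in knockdown libraries against 15.6, 11.9 and 12.02 CPM in control libraries. It fell 2.03-fold, with no overlap of the groups and a log2 ratio of -1.02 ± 0.15 (SE, adjusted p = 4.77e-05 by edgeR). A fall of at least 2-fold with a call was found in 6.1% of all genes tested.

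LPIN1 and LPIN2, phosphatases that make diacylglycerol, were not called (log2 fold changes 0.00 and -0.18, edgeR adjusted p = 0.982 and 0.0881). LPIN2 passed as lower with upper-quartile factors (-0.22, edgeR adjusted p = 0.0377), with total counts only (-0.34, 0.00301) and without knockdown replicate 1 (-0.22, 0.0352). The last step to triglyceride has a pair of unrelated enzymes. DGAT1, in the endoplasmic reticulum, rose to 23.9, 24.3 and 26.6 CPM in knockdown libraries, against 20.4, 20.5 and 19.4 CPM in control libraries (log2 fold change 0.31 ± 0.09, SE, edgeR adjusted p = 0.00692; 0.15, 0.150, with total counts only). The DGAT1 region overlaps HSF1 on the opposite strand, which averaged 85.3 CPM in knockdown and 93.7 CPM in control. DGAT2, which also sits at droplets and uses newly made fatty acids, fell to 2.39, 2.19 and 1.84 CPM in knockdown libraries, against 3.80, 3.84 and 3.597 CPM in control libraries (log2 fold change -0.81 ± 0.22, SE, edgeR adjusted p = 0.00564). Per kilobase, DGAT1 was 86.8%, 88.0% and 90.5% of the pair in knockdown libraries and 77.9%, 77.9% and 78.0% in control libraries. The pair thus leaned further to DGAT1 in every knockdown library.

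**Figure D5:**
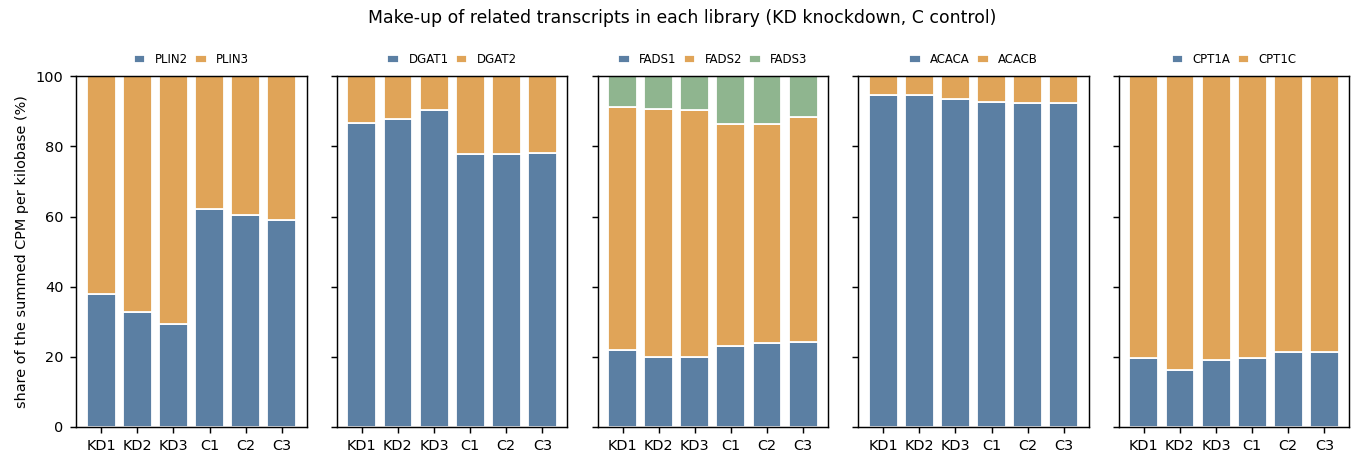
Share of each related transcript in the summed CPM per kilobase of its set (y axis, %), for knockdown replicates 1 to 3 (KD1 to KD3) and control replicates 1 to 3 (C1 to C3). PLIN2 was 29.2% to 37.9% of the PLIN2 and PLIN3 sum in knockdown libraries and 59.0% to 62.2% in control libraries. The CPT1A share of its pair was 16.15% to 19.49% in knockdown libraries and 19.5% to 21.42% in control libraries, nearly touching.

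The fall of G0S2 was the largest change of any member. G0S2 encodes a small protein that binds and inhibits the lipase ATGL (ENSG00000123689, chr1:209675412-209676390, plus strand). It had 1.59, 1.83 and 1.94 CPM in knockdown libraries against 32.4, 31.1 and 29.8 CPM in control libraries, from 32, 36 and 36 counts against 681, 632 and 630. It was 17.4-fold lower in knockdown, a log2 ratio of -4.12 ± 0.12 (SE, adjusted p = 2.79e-12 by edgeR). HSD11B1-AS1, annotated across it on the other strand, averaged 0.087 CPM in knockdown and 1.505 CPM in control.

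PNPLA2, the gene of ATGL itself, the first lipase of triglyceride, had 68.3, 61.5 and 62.4 CPM in knockdown libraries against 60.04, 54.8 and 54.3 CPM in control libraries. It was called higher (log2 fold change 0.18 ± 0.07, SE, edgeR adjusted p = 0.0299), but not with upper-quartile factors (0.14, 0.0921) or total counts only (0.03, 0.767), nor without knockdown replicate 1 (0.14, 0.0834), control replicate 2 (0.17, 0.114) or control replicate 3 (0.16, 0.106). Per kilobase, G0S2 was 6.05%, 7.59% and 7.91% of the sum of G0S2 and PNPLA2 in knockdown libraries and 59.8%, 61.0% and 60.2% in control libraries. The inhibitor's message was thus the more abundant of the pair in control libraries and the scarcer in knockdown libraries. ABHD5, the activator of ATGL, averaged 16.01 ± 0.912 CPM in knockdown and 16.5 ± 1.24 CPM in control and was not called (-0.04, edgeR adjusted p = 0.758).

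The lipases of the next steps were lower. LIPE, hormone-sensitive lipase, which acts on diacylglycerol, had 8.17, 8.04 and 8.80 CPM in knockdown libraries against 11.98, 10.7 and 12.4 CPM in control libraries (log2 fold change -0.49 ± 0.12, SE, edgeR adjusted p = 0.0032). MGLL, which splits monoacylglycerol, was scarce, at 0.598, 0.458 and 0.810 CPM in knockdown libraries against 1.19, 2.31 and 2.18 CPM in control libraries. Its counts were only 12, 9 and 15 against 25, 47 and 46 (log2 fold change -1.60 ± 0.37, SE, edgeR adjusted p = 0.00197). SEC61A1, which overlaps the MGLL region on the opposite strand, was far more abundant and averaged 334 CPM in knockdown and 203 CPM in control.

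PNPLA3, a droplet protein related to ATGL and a known SREBP target, rose in knockdown. It had 24.0, 29.0 and 25.3 CPM in knockdown libraries against 15.5, 14.9 and 15.5 CPM in control libraries, a log2 ratio of 0.77 ± 0.10 (SE, adjusted p = 7.48e-06 by edgeR). Its region overlaps SAMM50 on the same strand, which averaged 66.7 CPM in knockdown and 59.3 CPM in control.

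The perilipin coats moved in opposite directions. PLIN2, a coat that is stable only on droplets (ENSG00000147872, chr9:19108375-19149290, minus strand), had 38.3, 28.8 and 27.0 CPM in knockdown libraries against 63.0, 58.3 and 58.9 CPM in control libraries. Knockdown replicate 1 was the nearest to control and was still below it, and the log2 fold change was -0.94 ± 0.10 (SE, edgeR adjusted p = 2.32e-06). PLIN3, a coat that cycles between cytosol and droplets, had 74.0, 69.6 and 77.0 CPM in knockdown libraries against 45.1, 44.98 and 48.1 CPM in control libraries (log2 fold change 0.67 ± 0.06, SE, edgeR adjusted p = 4.4e-07). Of the per-kilobase sum of both, PLIN2 was 37.9%, 32.8% and 29.2% in knockdown libraries and 62.2%, 60.4% and 59.0% in control libraries, so PLIN3 was the major coat message in knockdown and PLIN2 in control.

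FABP5, a carrier of fatty acids in the cytosol, had the largest rise of any member. It had 213, 191 and 216 CPM in knockdown libraries against 61.2, 62.3 and 74.8 CPM in control libraries (ENSG00000164687, chr8:81280536-81284777, plus strand). The groups were well apart, at 3.13-fold, a log2 ratio of 1.64 ± 0.07 (SE, adjusted p = 1.3e-10 by edgeR). Processed copies of this gene exist, and one of them, FABP5P7, had 246, 188 and 195 counts in knockdown libraries against 62, 74 and 72 in control libraries. FABP5 itself had 4286, 3748 and 4002 counts against 1288, 1266 and 1581, so the copy held few of the reads. Reads of FABP5 and its copies cannot be told apart with certainty.

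Of the 10 oxidation members 5 were called higher and 1 lower, none with an absolute log2 fold change of 0.58 or more, a size reached with a call by 21.3% of all genes tested. With total counts only 2 were higher and 2 lower. The carnitine shuttle starts at CPT1. CPT1A, its main liver-type form, had 15.9, 14.7 and 16.4 CPM in knockdown libraries against 18.5, 20.8 and 17.6 CPM in control libraries and was called lower (log2 fold change -0.28 ± 0.10, SE, edgeR adjusted p = 0.0293). Settings that lost this call included DESeq2 (-0.27, DESeq2 adjusted p = 0.0505), no low-count filter (-0.27, edgeR adjusted p = 0.0506), and leaving out knockdown replicate 2 (-0.23, 0.113), control replicate 1 (-0.29, 0.0534) or control replicate 2 (-0.21, 0.16).

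CPT1C, a neuronal form with little transferase activity, averaged 38.2 ± 2.97 CPM in knockdown and 39.5 ± 3.46 CPM in control and was not called (log2 fold change -0.05, edgeR adjusted p = 0.661). It was the larger part of the pair per kilobase in both groups, at 81.7% ± 1.84 in knockdown and 79.3% ± 1.06 in control (SD, n = 3 each). CPT2, on the inner mitochondrial membrane, had 50.005, 55.7 and 51.7 CPM in knockdown libraries against 38.1, 38.7 and 41.9 CPM in control libraries. It rose in each of them, with a log2 ratio of 0.41 ± 0.07 (SE, adjusted p = 0.000205 by edgeR).

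Of 4 genes of beta-oxidation enzymes, 2 were higher and the other two were not called. HADHA, the alpha subunit of the trifunctional protein and the most abundant oxidation member per kilobase, had 201, 192 and 192 CPM in knockdown libraries against 201, 198 and 192 CPM in control libraries, which overlapped (log2 fold change -0.01 ± 0.05, SE, edgeR adjusted p = 0.809). With total counts only it was called lower (-0.17, edgeR adjusted p = 0.00436). HADHB, the beta subunit, is a head-to-head neighbour whose annotated region overlaps that of HADHA, and it had 65.6, 65.4 and 61.8 CPM in knockdown libraries against 51.2, 57.2 and 54.7 CPM in control libraries. Its rise (0.24 ± 0.06, SE, edgeR adjusted p = 0.00493) was lost with total counts only (0.08, 0.283). ACADVL, the dehydrogenase of very long chains, averaged 116 ± 3.67 CPM in knockdown and 95.0 ± 2.19 CPM in control (log2 fold change 0.28 ± 0.05, edgeR adjusted p = 0.000249). DLG4, which overlaps the ACADVL region on the opposite strand, averaged 42.4 CPM in knockdown and 66.0 CPM in control. ACADM, of medium chains, averaged 63.0 ± 2.24 CPM in knockdown and 62.1 ± 3.45 CPM in control and was not called (0.02, edgeR adjusted p = 0.797).

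The 3 regulators of oxidation among the members were scarce or moved little. PPARA, the fatty acid receptor that drives oxidation in liver, had 6.08, 8.29 and 6.70 CPM in knockdown libraries against 5.47, 4.63 and 4.26 CPM in control libraries (log2 fold change 0.55 ± 0.17, SE, edgeR adjusted p = 0.0142). It was not called under total counts only (0.40, edgeR adjusted p = 0.0686), and without knockdown replicate 2 (0.42, 0.0794), control replicate 2 (0.53, 0.0501) or control replicate 3 (0.48, 0.0607). PPARD, its widely expressed relative, averaged 32.0 ± 1.10 CPM in knockdown and 26.8 ± 2.56 CPM in control (0.26 ± 0.09, edgeR adjusted p = 0.0213). That call was lost with upper-quartile factors (0.21, 0.0525) and total counts only (0.10, 0.362), and without knockdown replicate 3 (0.24, 0.0656), control replicate 2 (0.23, 0.0831) or control replicate 3 (0.20, 0.0992). PPARGC1A, a coactivator of mitochondrial genes, had 1.34, 1.98 and 1.998 CPM in knockdown libraries against 1.95, 2.02 and 2.27 CPM in control libraries and was not called (-0.23, edgeR adjusted p = 0.495).

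Further genes of the same pathways and their control, 98 in all, were listed by role, and 83 of them were tested. HMGCS1, listed under synthesis and its control, is a gene of sterol synthesis and not of fatty acid synthesis. Among other genes of synthesis and its control 7 of 19 were higher and 2 lower. SREBF1, the SREBP gene that mainly drives fatty acid genes, was lower, at 143, 121 and 121 CPM in knockdown libraries against 159, 152 and 142 CPM in control libraries (log2 fold change -0.23 ± 0.07, SE, edgeR adjusted p = 0.00833). Its groups overlapped, and the call was lost without knockdown replicate 3 (-0.18, edgeR adjusted p = 0.058) or control replicate 1 (-0.19, 0.0545). SREBF2, the relative that mainly drives sterol genes, was higher, at 423, 398 and 393 CPM in knockdown libraries against 344, 348 and 343 CPM in control libraries (0.23 ± 0.04, SE, edgeR adjusted p = 0.000423). SREBF2 was not called under total counts only (0.07, edgeR adjusted p = 0.166). HMGCS1 of sterol synthesis (2.79), INSIG1, which retains SREBP in the endoplasmic reticulum (2.34), and DBI, the acyl-CoA binding protein (0.50), had the largest called rises. MECR, of mitochondrial fatty acid synthesis, had a log2 fold change of -0.44.

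In the other desaturation and elongation genes 5 of 11 were higher and 2 lower. DEGS1, the desaturase that makes ceramide, rose by 1.01 on the log2 scale, HACD3 of the elongation cycle by 0.40 and the reductase TECR by 0.31. HACD4 and HACD2, dehydratases of the same cycle, had log2 fold changes of -0.97 and -0.23. Of other storage and lipolysis genes 8 of 23 were higher and 4 lower. The largest called rises were those of FABP3, a fatty acid carrier of muscle (1.31), LPIN3, a lipin (0.96), and HILPDA, a further inhibitor of ATGL (0.96). HILPDA had 15.5, 12.2 and 12.9 CPM in knockdown libraries against 6.47, 7.14 and 7.24 CPM in control libraries, opposite in direction to G0S2. The lowest were SLC27A2, a fatty acid transporter and very long chain synthetase (-1.10), DDHD2, a triglyceride lipase of neurons (-0.54), and PNPLA4 (-0.45). Each of these calls was at an edgeR adjusted p under the threshold of 0.05.

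Of other oxidation genes 9 of 30 were higher and 8 lower. ACAD11, an acyl-CoA dehydrogenase, had 1.29, 0.865 and 0.756 CPM in knockdown libraries against 4.71, 5.56 and 4.40 CPM in control libraries, the largest called change of this list (log2 fold change -2.32 ± 0.26, SE, edgeR adjusted p = 2.39e-06). EHHADH, the peroxisomal bifunctional enzyme, was at -1.02 and ANGPTL4, a PPAR target that inhibits lipoprotein lipase, at -0.73. The ANGPTL4 call was lost without knockdown replicate 2 (-0.66, edgeR adjusted p = 0.0708) or control replicate 1 (-0.57, 0.128). ACAA1, the peroxisomal thiolase (0.78), ACOX3, a peroxisomal oxidase (0.64), and ACAD9, a complex I assembly factor of the dehydrogenase family (0.42), had the largest called rises. With total counts only, calls in the 4 lists were 4 higher and 7 lower in synthesis, 4 and 4 in desaturation, 4 and 7 in storage, and 4 and 14 in oxidation. The share called in the 4 lists was 47.4% to 63.6%, around the 51.7% of all genes tested.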

How the data were processed

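The authors deposited raw counts per gene, whole numbers with no normalization, for 6 libraries. Alignment with HISAT2 and counting with HTSeq on GRCh38 are per the submitters' processing notes. Their versions and the strand setting were not stated. Kit and growth conditions are per the labels' protocols. Genes were filtered with filterByExpr in edgeR 4.0.16 (R 4.3.3), which left 17258, scaled with TMM factors and compared by the two-sided quasi-likelihood test, adjusting p over every tested gene (Benjamini-Hochberg). Each SE was derived from the F statistic. Levels per kilobase divide CPM by the exon length in the table. Alternatives were other scaling and filters, DESeq2 1.42.0, limma-voom (limma 3.58.1), a replicate block, and leaving out each library. The scripts were tested on simulated counts. There 20 of 171 calls were false, and 85.9% of 2-fold and 68% of 1.5-fold changes were recovered. Replicates of a group differed by more than counting noise (chi-square per degree of freedom 2.77 to 7.90). The members and lists were chosen with earlier results of these data known. All members are described; values in every library are given at least for called members with a log2 fold change of at least 0.58 in size and the highest member per class. Of the other lists the 3 highest and 3 lowest called genes are named, plus SREBF1 and SREBF2. LDAF1, of the other storage genes, was matched by gene ID. Promoter sequences are from RefSeq.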

Additional observations from a re-analysis of the deposited data

How the results depend on the processing

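Of the 31 called members, 21 kept call and direction under all 14 alternatives, among them FASN, ACLY, ACACA, SCD, FADS2, ELOVL5, ELOVL6, FABP5, PLIN3, PNPLA3, G0S2, PLIN2 and LIPE, and 10 lost the call at least once. With total counts only, 14 members were higher and 14 lower, and FADS1 (-0.0189), ELOVL2 (-0.0703), LPIN1 (-0.16) and ACADM (-0.14) changed sign. LPIN1 (-0.04) and ACADM (-0.0216) did so with upper-quartile factors, and LPIN1 (-0.0039) with a CPM of at least 1 in 3 libraries. With each library left out, the log2 fold change ran from -0.12 to 0.0046 for CPT1C, -0.13 to 0.0594 for ACACB, -0.0321 to 0.0038 for HADHA, -0.68 to 0.0134 for SCD5, -0.047 to 0.059 for LPIN1, -0.10 to 0.0088 for ABHD5 and -0.0108 to 0.0672 for ACADM, none of them called in the full comparison. Called oxidation members numbered 3 to 6 with a library left out, the 3 without control replicate 2, and called genes of the other oxidation list 10 to 21, with 10 without knockdown replicate 2 and 11 without control replicate 2. Over all genes 7409 to 9629 were called. The cause of these changes was not tested. Replicate numbers did not pair the libraries: deviations of same-numbered libraries correlated at -0.0221, -0.0104 and -0.0416, and no knockdown library correlated best with its own number. With the replicate block 8434 genes were called, with 21 members higher and 7 lower; FADS1, GPAM and CPT1A lost their calls (edgeR adjusted p = 0.0609, 0.0835 and 0.0558). Depth limits ACSL5, MGLL and SCD5, which had few counts.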

Other observations

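Library values are given here for a pair of peroxisomal genes from the list of other oxidation genes. ABCD3, a transporter of the peroxisomal membrane, had 37.1, 37.7 and 32.6 CPM in knockdown libraries against 28.5, 30.7 and 31.4 CPM in control libraries (log2 fold change 0.25, edgeR adjusted p = 0.0209). ABCD3 was not called under total counts only (0.09, edgeR adjusted p = 0.391), nor without knockdown replicate 2 (0.21, 0.0732), control replicate 1 (0.21, 0.0827) or control replicate 2 (0.26, 0.0523). EHHADH, an enzyme of the same organelle, had 7.12, 4.58 and 7.13 CPM in knockdown libraries against 12.4, 13.3 and 12.5 CPM in control libraries (log2 fold change -1.02, edgeR adjusted p = 5.55e-05). Neither gene's groups overlapped.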
